A study of Rattus norvegicus with 56 samples.

Results

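This comparison set 4 arrays of cultures that received 1 Hz repetitive transcranial magnetic stimulation (rTMS) and were taken 8 h afterwards against 3 arrays of sham cultures taken at the same time, 7 of the 56 arrays of the series, chosen by their treatment and time labels. The cells were primary hippocampal neurons of E18 Sprague-Dawley rat embryos, of no altered genotype in any group, grown in dishes. The 1 Hz dishes lay centred on an inverted coil driven at 15% of the maximal stimulator output, and the sham dish stayed in the incubator with the coil about 20 cm away. The remaining arrays hold untreated control cultures, intermittent theta burst stimulation (iTBS, short high-frequency bursts at the same output), and the sham and 1 Hz cultures at 0, 2, 24 and 48 h. Total RNA of whole dishes was labelled with a single dye (Cy3) and hybridised to a rat Agilent array, so fewer cells of a type and less RNA per cell cannot be told apart in any result that follows. The labels do not say whether the arrays of a group are separate cultures, so the p-values measure only the spread between these samples, which may be technical.

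rTMS drives brief currents in neurons through a changing magnetic field, and low-frequency pulse trains such as 1 Hz are usually applied to lower cortical excitability, whereas iTBS is usually applied to raise it. When neurons fire strongly, calcium entry through NMDA receptors and voltage-gated channels switches on immediate early genes such as Fos, Arc, Egr1 and Npas4 within minutes, and these in turn act on a slower wave of genes such as Bdnf. Hours later, a lasting change in synaptic strength involves receptor subunits, release proteins, scaffolds and channels, which is the interval that an 8 h sample addresses. Hippocampal cultures of this age also hold dividing progenitors, astrocytes and cells of the oligodendrocyte lineage beside the neurons.

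A level below is the log2 signal of a probe on an array after each array was brought to the same mean and the same spread, so that 0 is the mean of all probes of that array. A change is the mean level of the 1 Hz arrays minus that of the sham arrays, a difference on the log2 scale, and is given with its standard error (SE) from a limma fit on 55 arrays. Adjusted p-values are Benjamini-Hochberg values over 35694 probes that were well above background on at least 3 arrays. On the 7 arrays between 69.7 and 73.8% of spots were well above background, and the arrays correlated with each other at r of 0.967 to 0.993. The number of arrays limits the precision, the median SE of a change being 0.37.

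The sample numbers in the labels fall into 4 runs, called series A to D here, although the labels do not say what a run stands for. Sham replicates 1, 2 and 3 came from series B, C and D, and 1 Hz replicates 1, 2, 3 and 4 from series A, B, C and D, so 3 within-series pairs existed and 1 Hz replicate 1 had no sham partner. Array values are given below in the order sham B, C and D, then 1 Hz A, B, C and D. Levels depended on the series for 26902 probes (75.4%). 1 Hz replicate 1 stood apart: of 25910 probes well above background on all 7 arrays, 625 lay more than 2 log2 units below the median of the other 6 arrays, against 19 to 188 on the other arrays, and 70.4% of these low spots lay in the centre of its grid, an area that holds 15.7% of all spots. The gene list values are therefore given also over the means of the 3 within-series pairs, which do not use this array. The test of such a mean is a limma fit with a term for every combination of series and time, called the within-series fit. That fit was repeated without the 1 Hz array of a series. The sham and iTBS arrays of that series stayed in, so the value is not the mean of the remaining pairs.

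Of all probes tested in 1 Hz against sham cultures at 8 h, a single one, lower after 1 Hz, passed an adjusted p of 0.05 (0.0028% of the probes tested, limma), and it also was the one probe that passed without 1 Hz replicate 1 (adjusted p = 0.0045) and in the within-series fit (adjusted p = 0.0375). An unadjusted p under 0.05 was reached by 470 probes (1.32%), of which 234 (0.656%) were higher and 236 (0.661%) lower, while the within-series fit gave 1086 higher (3.04%) and 551 lower (1.54%). The 4 arrays of 1 Hz all lay above the 3 sham arrays for 367 probes (1.03%) and all below for 228 probes (0.639%). The mean level was higher after 1 Hz for 53.4% of probes, with a median change of 0.02. By pair mean 18090 of the 35694 probes were higher and 17604 lower. Of 721 genes placed in 37 lists by function or cell type, 698 had a probe, 680 were tested, and none passed the adjusted threshold.

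The probe that passed, A_44_P1130837, has no gene symbol in the annotation used. Its level was -1.0, -3.56 and -0.71 on the sham arrays and -4.53, -4.90, -4.90 and -5.10 on the 1 Hz arrays. The groups did not overlap, but the sham array of series C lay much closer to the 1 Hz arrays than the other sham arrays did. It fell by 3.1 ± 0.47 (SE, 4 against 3 arrays, limma adjusted p = 0.00175), from a mean of -1.76 ± 1.57 (SD, n = 3) to -4.86 ± 0.24 (SD, n = 4). The probe was dim: it was well above background on 2 of 3 sham arrays and on none of the 4 arrays of 1 Hz, where the raw signals were 2.76 to 3.52 against 43.5, 9.97 and 55.3 in sham, so that the measured bound is a level at least 2.83-fold lower. Among the other 48 arrays of the fit it was well above background on 1, of iTBS at 24 h. It therefore met the filter of at least 3 such arrays only with the 2 sham arrays where it was high. The filter and the comparison thus drew on the same arrays. The group means outside 8 h lay between -5.06 and -4.76 but for iTBS at 24 h at -3.69. The mean after 1 Hz at 8 h thus lay among the levels of most other groups, and the sham mean at 8 h lay above them. The iTBS cultures at 8 h gave -4.88, and 1 Hz differed from iTBS by 0.02 ± 0.47. With another background correction (normexp), which compresses dim signals, the change was -0.52 and did not pass. In a fit of only the 7 arrays, or of only the arrays at 8 h, it did not pass either. The smallest limma adjusted p of any probe was 0.674 with the arrays at 8 h. Nor did it pass without sham replicate 1 (-2.72, limma adjusted p = 0.196) or sham replicate 3 (-2.58, limma adjusted p = 0.116), whereas without sham replicate 2 or any 1 array of 1 Hz it lay between -4.00 and -3.02 and passed.

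The next probe by unadjusted p, A_44_P1160413, has no symbol either, was well above background on all 3 sham arrays and no 1 Hz array, and gave a change of -3.13 (limma adjusted p = 0.467), as a bound at least 3.52-fold lower. Cdh19, a cadherin of glial precursors, had the smallest unadjusted p among probes with a symbol. Its level was -1.33, -4.91 and -1.34 on the sham arrays and -4.84, -4.93, -4.91 and -5.11 on the 1 Hz arrays. The sham array of series C was as dim as the 1 Hz arrays, so the groups touched and the pair of series C showed no difference (0.00, against -3.60 and -3.77 in series B and D). The change was -2.42 ± 0.54 (limma adjusted p = 0.665), and as a bound the level was at least 1.67-fold lower. Without sham replicate 2 the change was -3.61 and passed. It was well above background on 2 sham arrays, no 1 Hz array and 1 of the other 48 arrays, an untreated control. Cdh19 too met the filter of at least 3 arrays only with the 2 sham arrays where it was high.

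**Figure D1:**
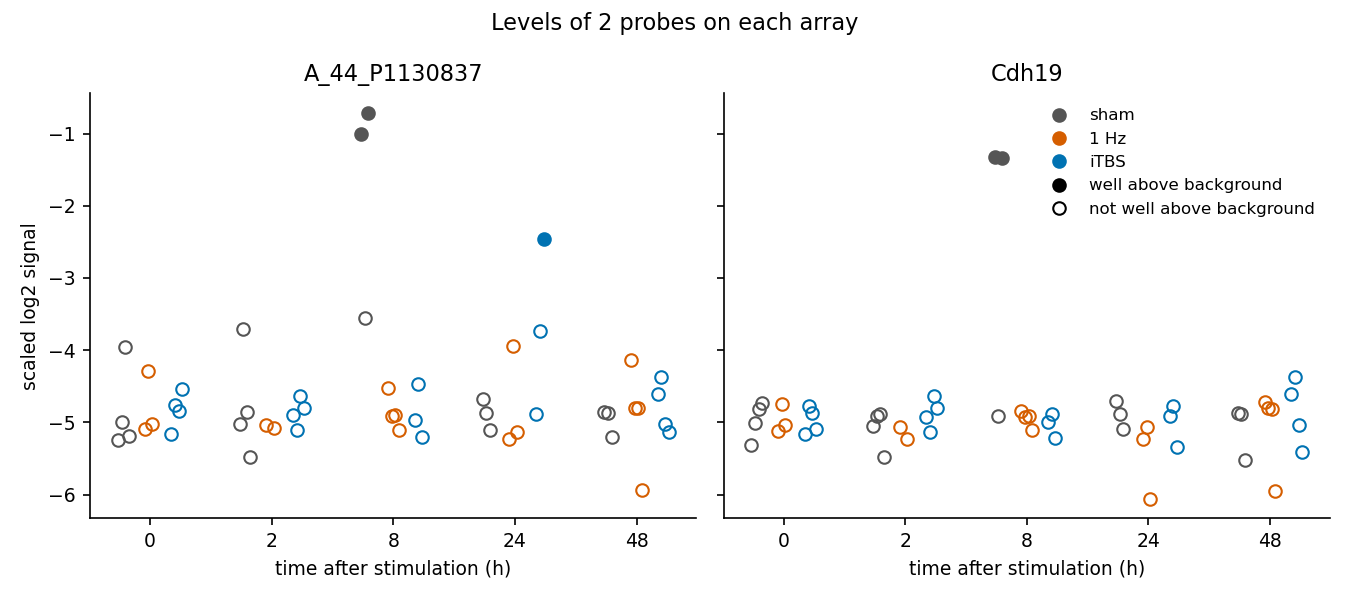
Level (log2, array mean 0) of A_44_P1130837 and Cdh19 on every sham, 1 Hz and iTBS array by hours after stimulation, with filled points well above background and open points not. The raised points at 8 h are sham arrays of series B and D, while the 1 Hz arrays lie from -5.11 to -4.53.

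Among 14184 probes with a symbol that were well above background on all 7 arrays, 140 lay higher and 38 lower after 1 Hz with no overlap between the groups. Over all probes tested the shares were 1.03% higher and 0.639% lower, and neither count exceeded its share. Of the 12 of each with the smallest unadjusted p, 1 probe a gene, all 12 higher and 11 lower genes are described here, and since they were picked for not overlapping, that property is no result of its own. None passed the adjusted threshold (limma adjusted p = 1.00 for each). The higher set held genes of unlike function.

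Uros, which encodes uroporphyrinogen III synthase of the heme pathway, had levels of -1.05, -0.26 and -1.11 in sham and 0.60, 1.03, -0.22 and 0.01 after 1 Hz. The change was 1.16 ± 0.31, with pair differences of 2.08, 0.05 and 1.12 in series B, C and D. The pair of series C was thus nearly level. Against iTBS at 8 h Uros was 0.87 ± 0.31 higher, with a limma adjusted p of 1.00.

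Sf3a2, a component of the splicing factor SF3a, was at -0.95, -1.02 and -0.93 in sham and at -0.62, -0.06, -0.63 and -0.33 after 1 Hz, a change of 0.55 ± 0.26. Gys2, the liver-type glycogen synthase, was at -2.40, -1.70 and -1.59 in sham and at -1.20, -1.40, -1.11 and -0.98 after 1 Hz, a change of 0.72 ± 0.34. The pair differences were 0.38 to 0.88 for Sf3a2 and 0.59 to 1.00 for Gys2, of a sign that the choice of genes fixed. Otx1, a homeobox factor of forebrain development, was at 0.95, 0.83 and 0.84 in sham and at 1.15, 1.10, 1.11 and 1.46 after 1 Hz, a change of 0.33 ± 0.16. Its sham arrays lay close together and 1 Hz replicate 4 lay apart from the other 1 Hz arrays.

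Zfat, a zinc finger transcription factor gene, was at -1.01, -0.93 and -0.79 in sham and at -0.72, 1.26, -0.39 and -0.48 after 1 Hz. Its change of 0.83 ± 0.32 came largely from 1 Hz replicate 2, the pair differences being 2.27, 0.54 and 0.31. Ppp1r10, a nuclear regulatory subunit of protein phosphatase 1, was at 1.55, 1.70 and 1.58 in sham and at 2.84, 1.88, 1.86 and 2.49 after 1 Hz, a change of 0.66 ± 0.31 that was 0.47 over the pairs. The other 6 higher genes were the ubiquitin ligase gene Rnf26 (0.85 ± 0.37), Clrn2 (0.77 ± 0.35), Glb1l (0.49 ± 0.22), Abi3 (0.49 ± 0.24), Myadml2 (0.48 ± 0.23) and Fam32al1 (0.41 ± 0.19). Their pair means were between 0.30 and 0.66, a direction that the choice of genes fixed.

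Much of the lower set rested on 1 Hz replicate 1. Setd4, a lysine methyltransferase gene, was at 6.67, 6.56 and 6.49 in sham and at 2.82, 6.46, 6.48 and 6.36 after 1 Hz, and its change went from -1.05 to -0.14 without replicate 1. Zmym3, a zinc finger gene, was at 8.21, 8.14 and 8.09 in sham and at 4.16, 7.97, 8.09 and 8.07 after 1 Hz, and its change went from -1.08 to -0.11. Snph, whose product syntaphilin anchors mitochondria in axons, was at 5.71, 5.75 and 5.74 in sham and at 3.97, 5.63, 5.66 and 5.59 after 1 Hz, and its change went from -0.52 to -0.10. In these genes replicate 1 lay far below every other array, and their spots, like those of Usp48 and Osbpl7, were in the grid centre of that array.

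Prpf18, a splicing factor gene, rested on the other side on 1 sham array: it was at 1.70, 0.18 and 0.22 in sham and at -0.17, -0.43, 0.15 and 0.06 after 1 Hz, with pair differences of -2.13, -0.03 and -0.15. Rpl27a, a protein of the large ribosomal subunit, was at 10.42, 10.28 and 10.45 in sham and at 10.15, 9.99, 10.21 and 10.18 after 1 Hz, a change of -0.25 ± 0.21. Its pair differences were -0.43, -0.08 and -0.27, with a mean of -0.26. The within-series fit without the 1 Hz array of series B gave -0.13. The rest were Atg16l2 (-0.60, or -0.30 without replicate 1), LOC100911384 (-0.38), Usp48 (-0.35, or -0.16), Osbpl7 (-0.29, or -0.15), Abcd3 (-0.25) and Tmem245 (-0.22).

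**Figure D2:**
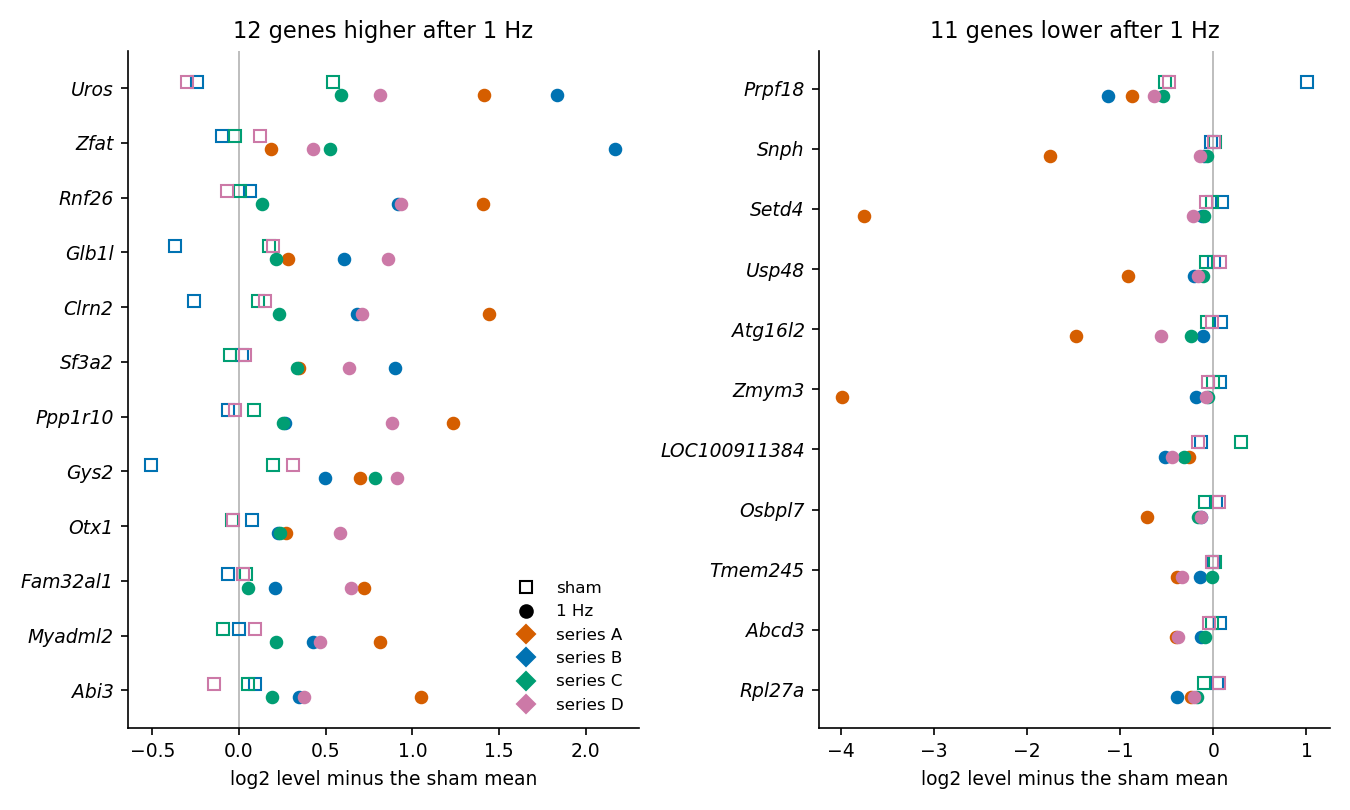
Level on each of the 7 arrays minus the sham mean (log2) for the 23 genes, squares for sham and circles for 1 Hz, coloured by series A to D. The circles of series A lie far to the left for Setd4, Zmym3 and Snph, whereas the other circles of those genes lie next to the sham squares.

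The labelled cell type was checked against its markers. All 12 neuron markers tested were well above background on all 7 arrays, as were 10 of 11 excitatory neuron markers and 11 of 13 interneuron markers. Markers of other cells were measured as well: 11 of 12 astrocyte, 8 of 9 oligodendrocyte progenitor, 9 of 9 myelin, 6 of 10 microglia, 8 of 13 endothelial, mural and fibroblast and 4 of 6 choroid plexus markers were well above background on all 7. Erbb3, Mal, Opalin, Klk6, Ptprc, Kl and Clic6 from these lists were too dim to test.

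No cell type marker passed the adjusted threshold. The median change was 0.20 for neurons (10 of 12 with a higher mean), 0.21 for excitatory neurons (7 of 11) and 0.16 for interneurons (11 of 13). These medians stood beside one of 0.02 over all probes, and over the within-series pairs they were 0.13, 0.16 and 0.28 beside one of 0.00345 over all probes. All 13 interneuron markers had a pair mean above 0, beside 18090 of the 35694 probes, with Calb1, a calcium buffer, at 0.45 and Npy, a neuropeptide, at 0.42. In the within-series fit 2 of the 13 had an unadjusted p under 0.05, beside 4.59% of all probes. The pair medians were 0.54, 0.05 and 0.13 in series B, C and D. Without the 1 Hz array of series B, its sham array kept, the within-series fit gave a median of 0.18. None of the 13 then had an unadjusted p under 0.05, a count near the 2.63% of all probes.

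Tbr1, a transcription factor of glutamatergic neurons, was at -3.85, -2.44 and -1.70 in sham and at -1.26, -2.49, -1.54 and -1.11 after 1 Hz. Its change was 1.06 ± 0.57, with pair differences of 1.35, 0.90 and 0.59. The probe was near background in sham, being well above it on 2 of 3 sham arrays and on all 4 arrays of 1 Hz. The groups overlapped, the sham levels being spread widely between series. Eno2, the neuronal enolase, was at 6.29, 6.31 and 6.95 in sham and at 6.92, 6.58, 6.59 and 7.55 after 1 Hz, with pair differences of 0.29, 0.28 and 0.60.

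Oligodendrocyte progenitor markers had a median change of -0.35, 8 of 9 having a lower mean, and -0.41 over the pairs, whose medians were -0.039, -0.014 and -0.93 in series B, C and D. Their mean level over the list was 4.89, 4.75 and 3.86 in sham and 3.61, 4.45, 4.75 and 2.66 after 1 Hz, so the pair of series C was level and that of series D was the widest apart. These values include Cdh19, which met the filter only with the 2 sham arrays, of series B and D, where it was high. Its levels there widen the gaps of those pairs, and means without Cdh19 were not taken. Myelin markers had a median change of -0.36, which was -0.04 over the pairs. Their mean level was 3.02, 4.87 and 1.59 in sham and 1.29, 3.12, 4.95 and 1.37 after 1 Hz, a spread between series that was far wider than any difference within one. Astrocyte markers gave -0.16 (9 of 12 lower) and -0.05 over the pairs, choroid plexus markers -0.55 (5 of 6 lower) and -0.37, microglia markers 0.15 (6 of 10 higher) and -0.05, and endothelial, mural and fibroblast markers 0.13 (9 of 13 higher) and 0.11.

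**Figure D3:**
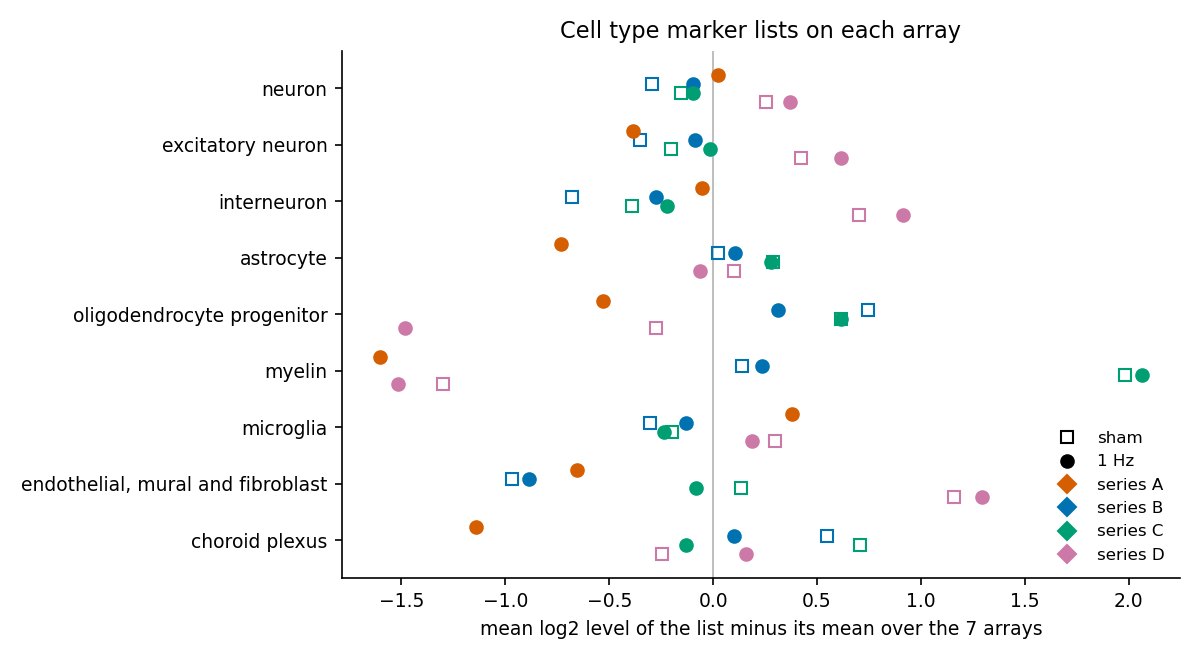
Mean level of each cell type marker list on each of the 7 arrays, minus its mean over the 7 (log2), squares for sham and circles for 1 Hz, coloured by series. For the myelin markers the points lie by series, from 1.29 in series A to 4.95 in series C before centring, with sham and 1 Hz of a series side by side.

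None of the tested genes that respond to neuronal firing passed the adjusted threshold at 8 h. Fos, a subunit of the AP-1 factor, was at 0.79, -1.18 and 1.39 in sham and at 0.90, 0.99, -1.07 and 1.34 after 1 Hz. Egr1, a zinc finger immediate early factor, was at 2.21, 1.23 and 3.70 in sham and at 3.27, 2.54, 1.41 and 3.09 after 1 Hz. Arc, which controls AMPA receptor uptake, was at 4.21, 1.96 and 2.48 in sham and at 3.85, 4.31, 1.90 and 2.27 after 1 Hz. In each gene the arrays of a series lay together, and series C was the lowest.

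The changes were 0.21 ± 1.26 for Fos, 0.20 ± 1.03 for Egr1 and 0.20 ± 1.09 for Arc, and Egr1 and Arc turned to -0.03 and -0.06 over the pairs. Npas4 was not well above background on any of the 7 arrays. Over the 20 activity-regulated transcription factors tested the median change was 0.16 (13 higher, 7 lower), and 0.01 over the pairs. In all 3 pairs 1 was higher and 2 were lower, beside 16.1 and 16.6% of all probes.

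Effectors and feedback regulators of activity, 20 genes, had a median change of 0.30 with 18 of 20 higher, which was 0.08 over the pairs. In all 3 pairs 6 were higher and 0 lower, beside 16.1 and 16.6% of all probes. In the within-series fit 1 had an unadjusted p under 0.05 in the higher direction, beside 3.04% of all probes. Bdnf, the neurotrophin that supports synaptic plasticity, was at 2.21, 1.46 and 2.85 in sham and at 2.66, 2.72, 1.5 and 3.17 after 1 Hz, a change of 0.34 ± 0.79. Dusp1, a phosphatase that ends MAP kinase signals, was at -1.65, -1.20 and -0.17 in sham and at -0.56, -0.66, -0.73 and 0.28 after 1 Hz, a change of 0.59 that was 0.64 over the pairs. Nrn1, an activity-induced neurite growth factor, was at 2.79, 2.33 and 2.89 in sham and at 3.73, 3.33, 2.39 and 3.53 after 1 Hz, a change of 0.58 ± 0.53 and 0.42 over the pairs. In each of these genes the 3 pairs pointed up, those of series C by less than the rest for Bdnf and Nrn1, at 0.05 and 0.07.

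Receptors of neurotrophins and the main transmitters had small median changes. The 12 neurotrophins and neurotrophin receptors had a median change of 0.12, the 16 AMPA, kainate and NMDA receptor subunits 0.00 and the 8 metabotropic glutamate receptors 0.03, and over the pairs these were 0.14, -0.02 and 0.10. All 8 metabotropic receptor genes had a pair mean above 0, beside 18090 of the 35694 probes. Their pair medians were 0.19, 0.16 and 0.01 in series B, C and D. Grm3, a group II metabotropic receptor, was at 2.36, 2.64 and 2.80 in sham and at 1.86, 2.65, 2.88 and 3.11 after 1 Hz: the change was 0.02 ± 0.27 with replicate 1 and 0.28 over the pairs. Grin2d, an NMDA receptor subunit, gave -0.03 ± 0.40.

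The 15 GABA receptor subunits tested had a median change of 0.19 (12 higher), and 0.09 over the pairs. Gabrb1, a beta subunit of the GABA-A receptor, was at 5.87, 6.42 and 6.14 in sham and at 6.57, 6.12, 6.38 and 6.20 after 1 Hz, a change of 0.17 ± 0.17 that was 0.09 over the pairs. 4 further lists were drawn up by the study from these same samples and so carry no independent evidence. They gave a median of 0.09 for GABA signaling (8 of 9 higher), 0.03 for glutamate signaling (12 of 16 higher), 0.09 for learning and memory (9 of 13 higher) and -0.06 for Alzheimer's disease (8 of 12 lower). Over the pairs the medians were 0.016 (5 of 9 higher), 0.016 (10 of 16 higher), 0.055 (9 of 13 higher) and -0.054 (7 of 12 lower).

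Within the learning and memory list Prkcz, an atypical protein kinase C, was at 2.22, 2.68 and 2.90 in sham and at 2.99, 2.88, 2.63 and 3.61 after 1 Hz, with pair differences of 0.65, -0.05 and 0.70. Creb1, a transcription factor of memory formation, gave -0.21 ± 0.35. Within the Alzheimer's disease list Gsk3b, a tau kinase, was at 6.27, 6.03 and 6.21 in sham and at 2.70, 6.45, 5.98 and 6.39 after 1 Hz, so that a change of -0.79 turned to 0.10 without replicate 1. Apoe, a lipid carrier made by glia, gave -0.09 ± 0.35.

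Presynaptic release genes had a median change of 0.19, 17 of 19 being higher, and 0.15 over the pairs. The pair of series B carried most of it, at a median of 0.24, against 0.00 and 0.02 in series C and D. Rab3a, a vesicle GTPase, was at 4.07, 4.63 and 5.15 in sham and at 5.43, 5.01, 4.62 and 5.92 after 1 Hz, a change of 0.62 ± 0.40, with pair differences of 0.93, -0.02 and 0.77. The 15 postsynaptic scaffolds had a median of 0.03 (8 higher, 7 lower), and 0.0024 over the pairs (9 and 6). The 26 potassium channels had a median of 0.07 (18 higher, 8 lower), and 0.0029 over the pairs (13 and 13). The 22 voltage-gated sodium and calcium channel genes had a median of -0.06 (6 higher, 16 lower), which turned to 0.03 over the pairs (12 and 10). Cacna2d3, an auxiliary calcium channel subunit, was at 2.38, 2.94 and 3.40 in sham and at 3.1, 3.09, 3.1 and 3.81 after 1 Hz, a change of 0.37 ± 0.38. The 22 axon guidance genes had a median of 0.02 (13 higher, 9 lower), which turned to -0.07 over the pairs (9 and 13).

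Ntn4, a netrin of the axon guidance list, was one of the few list members with an unadjusted p under 0.05. It was at -3.32, -3.03 and -3.95 in sham and at -2.79, -2.41, -1.77 and -2.99 after 1 Hz, with no overlap, a change of 0.94 ± 0.35 (limma adjusted p = 1.00). The pair differences were 0.91, 1.26 and 0.96. The probe was dim, being well above background on 1 of 4 arrays of 1 Hz and no sham array, and as a bound the level was at least 1.26-fold higher.

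**Figure D4:**
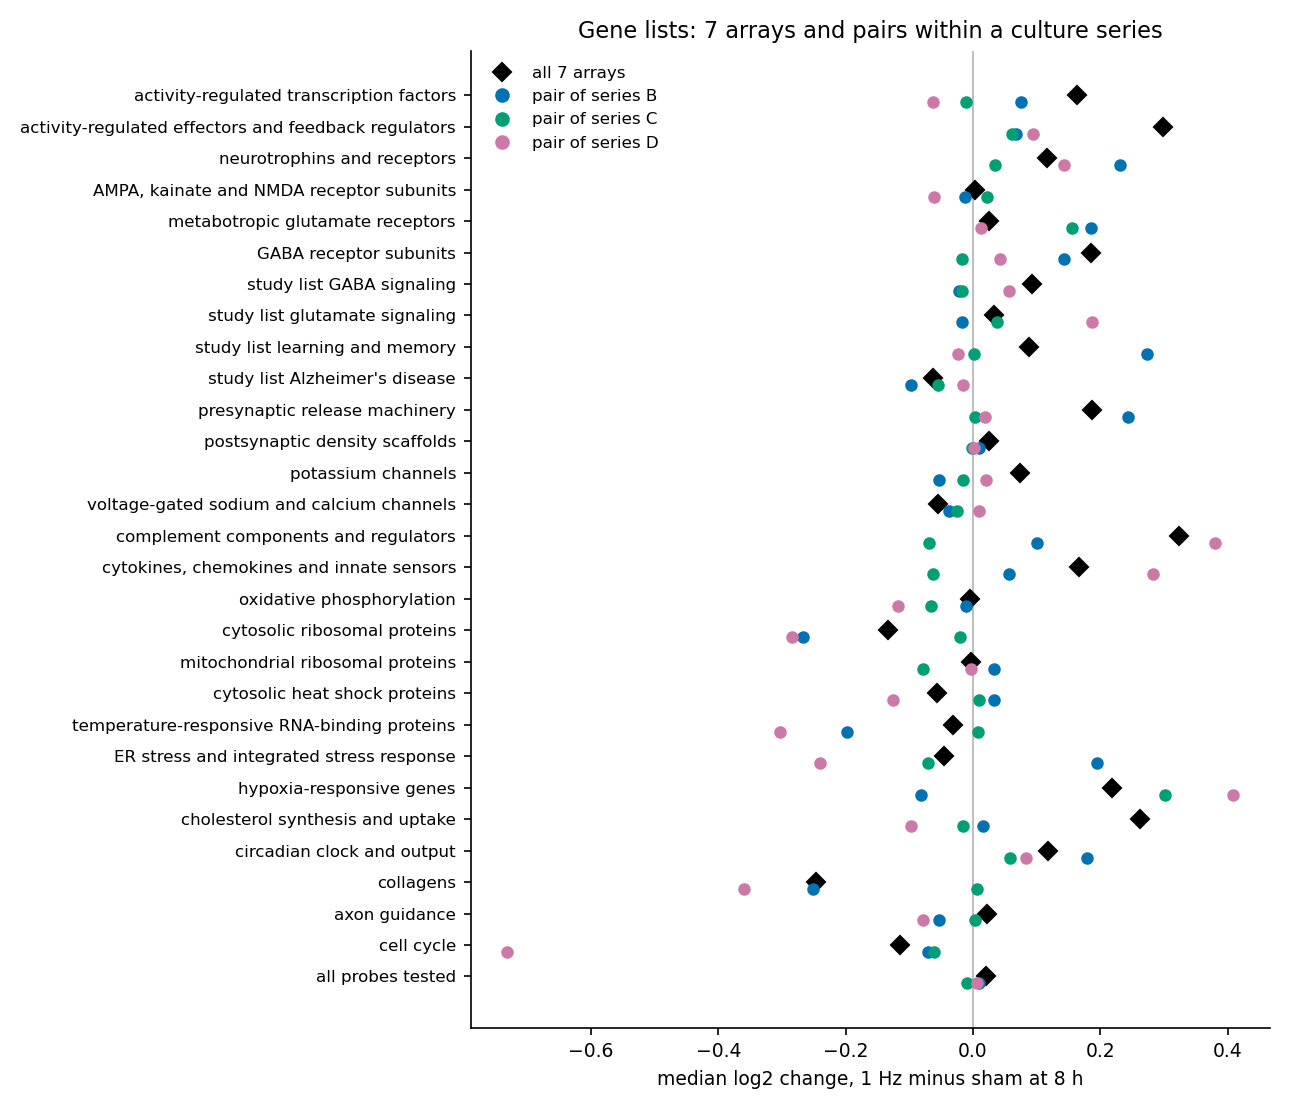
Median log2 change of each gene list after 1 Hz at 8 h, diamonds for all 7 arrays and circles for the within-series pairs B, C and D. The cholesterol and effector lists, at 0.26 and 0.30 over all arrays, were at -0.02 and 0.08 over the pairs, whereas the circles of the hypoxia list lie at -0.08, 0.30 and 0.41.

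Immune genes were mostly dim. Of 18 complement genes tested 7 were well above background on all 7 arrays; 12 were higher, with a median change of 0.32, and 0.20 over the pairs. C3ar1, the receptor of the C3a peptide, was at -3.62, -2.77 and -1.64 in sham and at -2.44, -2.24, -2.44 and 0.08 after 1 Hz, with pair differences of 1.38, 0.33 and 1.71. Cd55, which limits complement activation on cells, was at 0.12, -0.34 and 0.27 in sham and at -0.56, -0.49, -0.52 and -0.14 after 1 Hz, with pair differences of -0.61, -0.19 and -0.41. The C3ar1 probe was dim, being well above background on 1 of 3 sham and 3 of 4 arrays of 1 Hz, whereas that of Cd55 was well above background on all 7 arrays. The 17 cytokine and innate sensor genes tested had a median of 0.17, and 0.06 over the pairs, and Il1a, Il1b, Il6, Il12b, Ccl4, Cxcl13, Tlr4 and RT1-Da were too dim to test.

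Cytosolic ribosomal protein genes were lower after 1 Hz in 71 of 74 cases on this scale, by a median of 0.13, but the direction depended on the scaling: the median was -0.00269 when arrays were scaled by their 75th percentile and 0.03 with normexp. 7 of the 74 did not overlap between groups (0.639% of all probes lay lower in this way) and 1 had an unadjusted p under 0.05. Over the pairs the median was -0.20, with -0.27, -0.02 and -0.28 in series B, C and D, and 50 of 74 were lower in all 3 pairs, beside 16.6% of all probes. The same genes had a median of -0.32 in iTBS against the same sham arrays. Oxidative phosphorylation genes, 70 in number, were split 33 higher and 37 lower over all 7 arrays, but 14 higher and 56 lower by pair mean. Their pair-mean median was -0.079, and 32 of 70 were lower in all 3 pairs, again beside 16.6% of all probes. With scaling by the 75th percentile their median over all 7 arrays was 0.08. The pair counts of both lists were taken on this scale only. Both lists are bright, at mean levels of 10.24 and 7.81 on the sham array of series B beside 1.24 over all probes. All probes are thus not a like baseline for them. The 64 mitochondrial ribosomal protein genes were split 30 higher and 34 lower, and 28 and 36 by pair mean.

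Stress genes had small median changes too. The 13 cytosolic heat shock genes had a median change of -0.06 (6 higher, 7 lower) and the 19 endoplasmic reticulum and integrated stress response genes -0.05 (6 higher, 13 lower), and over the pairs these were -0.07 and -0.05. Hsph1, a heat shock protein of the Hsp110 family, gave 0.37 ± 0.33. Sdf2l1, a chaperone cofactor of the endoplasmic reticulum, was at 5.05, 5.38 and 6.0 in sham and at 4.86, 5.15, 5.25 and 4.70 after 1 Hz, a change of -0.49 ± 0.31 in which series D differed the most (-1.30). Cirbp and Rbm3, RNA-binding proteins induced by mild cooling, gave -0.03 ± 0.19 and -0.03 ± 0.29, of which Cirbp turned to 0.04 and Rbm3 to 0.06 with scaling by the 75th percentile.

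Hypoxia-responsive genes, targets of the HIF factors, were higher in 13 of 14 cases with a median change of 0.22, which was 0.25 with scaling by the 75th percentile and 0.24 over the pairs. 3 of the 14 had an unadjusted p under 0.05 in the within-series fit, all higher, beside 3.04% of all probes, and none did in the fit of all 7 arrays. None passed an adjusted p of 0.05 in either. The pair of series B did not share the direction, its median being -0.08 against 0.30 and 0.41 in series C and D. Without the 1 Hz array of series B in the within-series fit 4 of the 14 were counted, beside 612 higher of the 35694 probes. Without that of series C or D 1 was counted, beside 1232 or 914 higher probes. The 3 genes counted with all pairs were Adm, Egln3 and Ankrd37. Their promoters, from 250 bases before to 50 bases after the start, are shown because these genes were the ones counted: RefSeq (GRCr8) places them at chr1:174179950-174180249 on the plus strand for Adm, chr6:77410966-77411265 on the minus strand for Egln3 and chr16:53001257-53001556 on the plus strand for Ankrd37, and capitals mark ACGTG or GCGTG on either strand (CACGT or CACGC), the core letters that HIF factors bind, which overlap each other in CACGTG.
Adm: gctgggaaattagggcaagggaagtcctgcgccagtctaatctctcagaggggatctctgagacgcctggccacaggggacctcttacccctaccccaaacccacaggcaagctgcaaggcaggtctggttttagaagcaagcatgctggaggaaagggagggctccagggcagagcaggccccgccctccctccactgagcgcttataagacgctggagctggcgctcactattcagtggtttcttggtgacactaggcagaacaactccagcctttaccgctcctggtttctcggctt
Egln3: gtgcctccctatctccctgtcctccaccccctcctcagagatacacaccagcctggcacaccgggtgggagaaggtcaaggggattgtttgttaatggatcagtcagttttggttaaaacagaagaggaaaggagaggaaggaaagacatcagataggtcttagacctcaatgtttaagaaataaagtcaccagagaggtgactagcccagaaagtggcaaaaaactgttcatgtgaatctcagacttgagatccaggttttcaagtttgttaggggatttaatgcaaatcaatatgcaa
Ankrd37: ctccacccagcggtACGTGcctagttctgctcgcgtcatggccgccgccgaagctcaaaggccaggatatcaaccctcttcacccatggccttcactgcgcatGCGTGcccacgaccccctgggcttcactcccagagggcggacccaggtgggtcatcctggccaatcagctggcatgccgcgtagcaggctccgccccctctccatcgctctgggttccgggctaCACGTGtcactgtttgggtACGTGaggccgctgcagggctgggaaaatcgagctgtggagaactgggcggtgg
The Ankrd37 window holds 5 matches in 4 capital runs and the other windows none, which says only that these letters are not in those windows. Of 33469 rat promoters of this length 41.6% hold at least 1 match and 1.52% hold at least as many as Ankrd37. Counted by gene and not by promoter, 10 of the 14 listed hypoxia genes with a promoter hold at least 1. A match is a description of the letters, and no binding was measured here.

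Adm encodes the vasodilator peptide adrenomedullin. It was at 3.89, 2.08 and 4.02 in sham and at 5.55, 3.77, 4.59 and 5.23 after 1 Hz, a change of 1.45 ± 0.72 (limma adjusted p = 1.00) and of 1.20 ± 0.42 over the pairs (limma adjusted p = 0.95). The pair of series B was level, at -0.12, and those of series C and D were 2.51 and 1.20 apart. The iTBS cultures at 8 h, set against the same sham arrays, gave 0.98, and the 1 Hz change at the other times, from the earliest to the latest, was -0.23, -0.02, 0.38 and -0.52.

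Egln3, a prolyl hydroxylase that marks HIF proteins for decay, was at 1.80, 2.54 and 2.56 in sham and at 1.96, 1.94, 2.95 and 3.39 after 1 Hz. Its pair differences were 0.14, 0.41 and 0.83, with a mean of 0.46 ± 0.15 (limma adjusted p = 0.91). Ankrd37, an ankyrin repeat protein gene, was at 1.01, 1.74 and 1.92 in sham and at 1.05, 0.71, 2.59 and 3.21 after 1 Hz, with pair differences of -0.29, 0.86 and 1.28. In both genes the groups overlapped and the sham array of series B was the lowest of the sham arrays. The glucose transporter gene Slc2a1 gave -0.17, and the glycolytic genes Ldha and Pgk1 and the growth factor gene Vegfa gave 0.19, 0.24 and 0.20.

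Cholesterol synthesis and uptake genes were higher in 18 of 19 cases with a median change of 0.26, but the median was -0.02 without 1 Hz replicate 1. Stard4, a sterol carrier, was at 6.25, 4.76 and 4.74 in sham and at 7.32, 6.42, 4.96 and 5.26 after 1 Hz, so series A and B lay above C and D in either group. The 16 circadian clock genes had a median of 0.12 (11 higher), and 0.05 over the pairs (9 higher). Ciart, a repressor of the clock, was at -3.38, -2.37 and -2.47 in sham and at -1.88, -2.17, -1.75 and -1.29 after 1 Hz, without overlap, a change of 0.97 ± 0.73 with pair differences of 1.21, 0.61 and 1.18. It was well above background on 1 of 3 sham arrays and on all 4 arrays of 1 Hz, and the change in iTBS at 8 h against the same sham arrays was 0.97 as well.

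Collagen genes were lower in 17 of 22 cases, with a median change of -0.25 and of -0.20 over the pairs. The medians of the pairs were -0.25, 0.01 and -0.36 in series B, C and D. In the within-series fit 4 had an unadjusted p under 0.05 in the lower direction and 1 in the higher, beside 1.54 and 3.04% of all probes. Without the 1 Hz array of series B in that fit these counts were 1 and 1, beside 328 lower and 612 higher of the 35694 probes.

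Col8a1, a short-chain collagen of vessel and corneal matrix, was at 0.22, -0.28 and 1.07 in sham and at -2.11, -0.59, -1.72 and 0.26 after 1 Hz. It was lower in each pair, with pair differences of -0.82, -1.44 and -0.80, and the pair mean was -1.02 ± 0.32. Col1a2, a fibrillar collagen chain of fibroblasts, was at 2.63, 4.78 and 7.88 in sham and at 2.14, 1.78, 4.27 and 6.85 after 1 Hz, with pair differences of -0.84, -0.51 and -1.02. The difference between series was several times that between sham and 1 Hz within a series. Col16a1 and Col4a1 had pair means of -0.32 and -0.33, and Col2a1, the cartilage collagen, one of 0.69. The list of 13 endothelial, mural and fibroblast markers, which includes Col1a1, Col1a2 and Col3a1, had a median change of 0.13. That median mixes these cell types and is no value for fibroblast markers alone. The part of this list in the collagen values was not tested.

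Cell cycle genes were lower in 15 of 20 cases, with a median change of -0.11, and in 19 of 20 over the pairs, with a median of -0.26. 11 of 20 were lower in all 3 pairs, beside 16.6% of all probes, and 8 of 20 had an unadjusted p under 0.05 in the lower direction in the within-series fit, beside 1.54% of all probes. The pair of series D was the widest apart, the pair medians being -0.07, -0.06 and -0.73 in series B, C and D. Without the 1 Hz array of series D, its sham array kept, the within-series fit gave a list median of -0.13, beside 0.0071 over all probes. None of the 20 then had an unadjusted p under 0.05, a count near the 3.94% of all probes. None passed the adjusted threshold in any of these fits.

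Mki67, the proliferation antigen Ki-67, was at 6.14, 6.18 and 4.78 in sham and at 5.69, 5.85, 6.11 and 3.94 after 1 Hz, with pair differences of -0.29, -0.07 and -0.84. Cdk1, the mitotic kinase, had pair differences of -0.13, -0.15 and -0.87. Rrm2, a ribonucleotide reductase subunit, was at 7.66, 6.93 and 5.24 in sham and at 7.85, 7.20, 6.80 and 4.29 after 1 Hz. In each the series D arrays were the lowest of their group and the series D pair was the widest. The others counted were Kif11 (-0.51), Bub1 (-0.38), Ccna2 (-0.36), Plk1 (-0.34) and Mcm2 (-0.30) by pair mean.

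Markers of oligodendrocyte progenitors, cells that divide in culture, moved with the series D pair. Pdgfra, their growth factor receptor, was at 8.45, 8.25 and 6.28 in sham and at 7.05, 8.32, 8.23 and 5.19 after 1 Hz, with pair differences of -0.12, -0.02 and -1.09. Olig2, a lineage transcription factor, had pair differences of -0.30, -0.10 and -0.88, and Sox10, another, was -1.75 in series D. The mean level of the 9 markers in that pair was 3.86 in sham and 2.66 after 1 Hz, while all but 1 of the 9, Cdh19, were well above background on all 7 arrays. Cdh19, which met the filter only with sham arrays where it was high, is part of both means. The part of these markers in the cell cycle values was not tested.

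**Figure D5:**
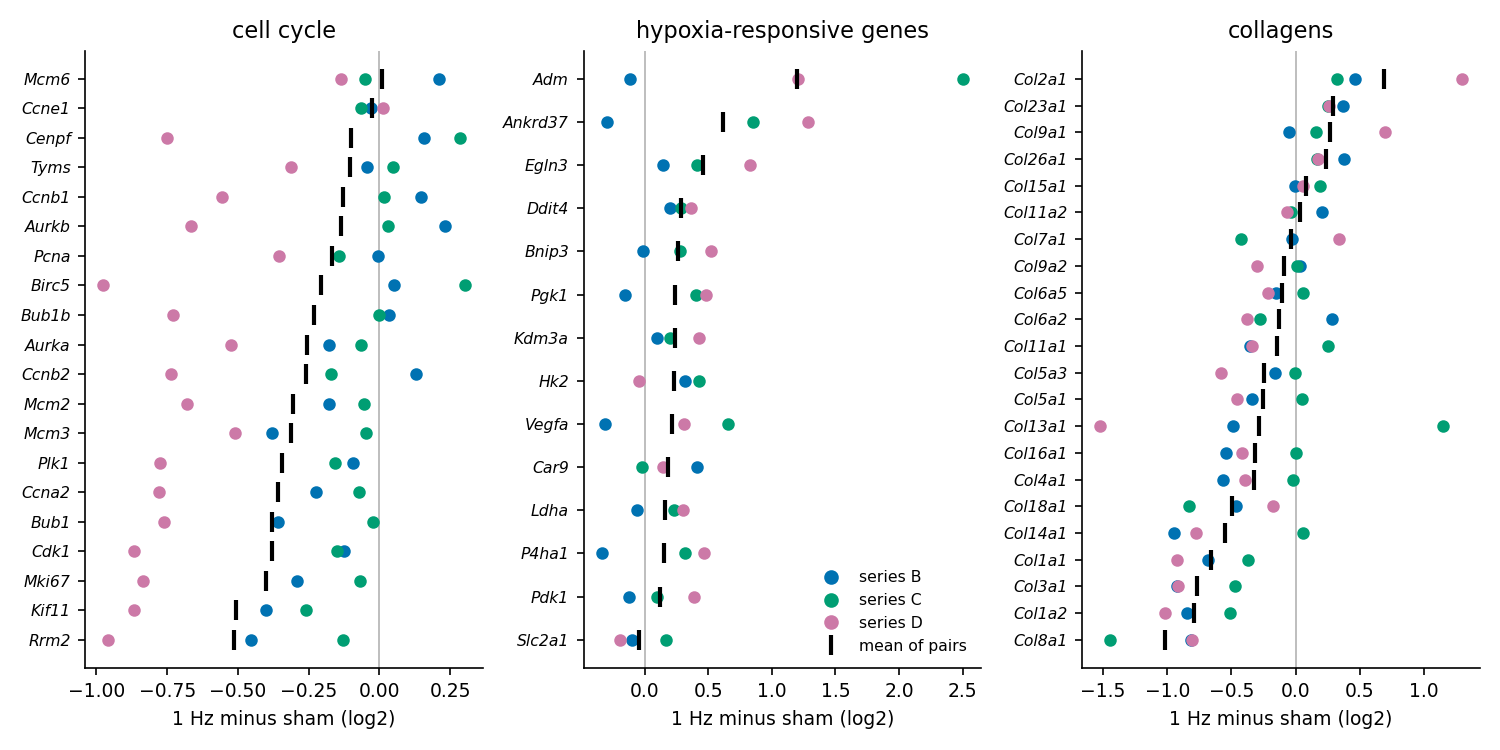
Difference between 1 Hz and sham within series B, C and D (log2) for each gene of the cell cycle, hypoxia and collagen lists, with a bar for the mean of the 3 pairs. The series D points lie lowest for most cell cycle genes, among them Mki67 at -0.84, and highest for Egln3 and Ankrd37, at 0.83 and 1.28.

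Set directly against iTBS at 8 h, 1 Hz differed in 1 probe at an adjusted p of 0.05 (0.0028% of probes), and 348 probes (0.975%) had an unadjusted p under 0.05. The probe was that of Endou, an endoribonuclease gene. Its level was -4.81, -4.73 and -4.68 in sham, -4.93, -4.75, -4.76 and -4.95 after 1 Hz and -1.78, 0.90 and -1.55 after iTBS, so 1 Hz and sham lay together and the iTBS arrays stood above them. The difference was -4.04 ± 0.52 (limma adjusted p = 4.09e-05), whereas 1 Hz and sham, both at background, gave -0.11 ± 0.52. Endou was well above background on all 3 iTBS arrays at 8 h and on none of the 7 arrays of 1 Hz and sham, so that the measured bound is a level at least 5.47-fold lower after 1 Hz than after iTBS. With normexp, or with only the arrays at 8 h, no probe passed.

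The 1 Hz change at 8 h was also compared with the mean of the 1 Hz changes at 0, 2, 24 and 48 h. 1 probe passed an adjusted p of 0.05 (0.0028% of probes), and 393 (1.1%) had an unadjusted p under 0.05. It was A_44_P1130837 again, with a difference of -3.08 ± 0.53 (limma adjusted p = 0.0247), the change being 0.04, -0.30, 0.11 and 0.06 at the other times. This difference uses the same arrays at 8 h and is no independent result. The probe met the filter only with the 2 sham arrays at 8 h where it was high. For Cdh19 the difference was -2.27 ± 0.61 and for Uros 1.25 ± 0.35, both with a limma adjusted p of 1.00. None of the list members passed in this comparison. No probe passed without sham replicate 1 or 3 or without 1 Hz replicate 2, 3 or 4, nor with scaling by the 75th percentile, normexp, trended variances, the slide or the replicate number as a block, or the within-series fit.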

How the data were processed

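Agilent scanner files of 56 arrays were used, as deposited. Per the file headers the authors extracted them with Feature Extraction 12.0.3.1 (1-colour protocol, build rn4), and their processed intensity values and background flags were taken. The authors' deposited table holds a score, the z-score of log10 signal within each array, and served as an alternative. Rebuilt and deposited z-scores differed by at most 0.005. Here log2 processed signals were z-scored within arrays, rescaled with the median of the array SDs (4.06) and fitted in limma 3.58.1 (R 4.3.3) by group, with Benjamini-Hochberg adjustment. 1 Hz replicate 2 at 2 h, with 25.3% of spots well above background and levels that correlated at -0.01 with the average over the rest, was left out, which gave 55 arrays. Of 45598 probes, 420 had no value and 9484 were too dim. Symbols came from RefSeq (GRCr8) for 20929 probes (46.3%), and a gene's probe was the one with the highest mean signal. No spot was saturated on the 7 arrays.

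Genes were named by rule: every probe past the threshold, the 12 smallest unadjusted p in each direction among non-overlapping probes well above background, 2 members of each list with the smallest unadjusted p, defining markers, and Fos, Arc, Egr1, Npas4, Bdnf, Cdh19, Grm3, Grin2d, Creb1 and Apoe. A few genes the rule picked are not reported here. Others named in the text are list members singled out by their within-series values after those were seen. The members and lists were chosen with earlier results of these data known. A bound on a dim probe takes, on each array, the higher of the lowest signal well above background and the probe's own. Title replicate numbers did not pair the arrays: deviations of same-numbered arrays correlated at -0.29 to 0.27, and those of the same series at 0.41 to 0.59. On simulated data with 200 changed probes the fit for 1 Hz at 8 h recovered 51 of 100 changes of 1.5 log2 units and 89 of 100 of 3 log2 units, with 5 false calls. The normexp alternative used median in place of mean signals. Alternatives were other scalings, filters, array subsets, blocks and leaving out each array.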

Additional observations from a re-analysis of the deposited data

Results flagged for a closer look

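Of 104 named genes, 18 had 1 array of the 1 Hz group far from the other 3 by Dixon's test at its usual critical value, where chance gives about 1 in 20 groups. In 12 genes it was replicate 1, always below: Snph (level 3.97), Setd4 (2.82), Usp48 (3.02), Zmym3 (4.16), Osbpl7 (5.34), Gsk3b (2.70), Ndufa6 (5.03), Rps25 (6.44), Mrpl44 (3.27), Sema4d (1.72), Fgfr3 (0.65) and Folr1 (-3.85). In Zfat (1.26) it was replicate 2, above. In Otx1 (1.46), Gpi (8.25), Cacna2d3 (3.81), C3ar1 (0.0755) and Cd55 (-0.14) it was replicate 4, above. The change of A_44_P1130837 at 8 h differed from its mean change at the other times by -3.08 (limma adjusted p = 0.0247). The probe met the filter only with sham arrays at 8 h that enter this difference.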

How the results depend on the processing

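The number of probes past an adjusted p of 0.05 for 1 Hz against sham at 8 h was 0 instead of 1 with normexp (360 at an unadjusted p under 0.05), among probes well above background on all 7 arrays (161), with only the 7 arrays (407), with only the arrays at 8 h (420), and in the within-series fit after 75th percentile scaling (1499), an alternative chosen after seeing the data. The study's criteria as read here called 1 probe with their demand for a mean z-score above 0, and 22 (15 higher, 7 lower) without it. The number past an adjusted p of 0.05 was 0 to 4 when arrays were left out of the main or the within-series fit. It was 0 without sham replicate 1, and in the within-series fit without the 1 Hz array of series B or D. It was 2 without sham replicate 2 (with Cdh19) or 1 Hz replicate 2. In the within-series fit without the 1 Hz array of series C it was 4. The single probe was another without sham replicate 3. For 8 h against the other times it was 0 with 75th percentile scaling, normexp, the stricter filter, all 56 arrays, the within-series fit, that fit after 75th percentile scaling, the slide as a block, the replicate block, and trended robust variances, and 0 to 2 on leaving out arrays. For 1 Hz against iTBS it was 0 with normexp, the stricter filter and only the arrays at 8 h, 2 in the within-series fit, and 1 to 2 on leaving out arrays. With the replicate number as a block 1 probe passed against sham (596 at an unadjusted p under 0.05) and 1 against iTBS, and the numbers do not pair the arrays.

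The changes that turned sign were all of genes that did not pass the threshold for 1 Hz against sham. With 75th percentile scaling these were Cirbp (0.038), Rbm3 (0.065), Grin2d (0.066) and Apoe (0.054). With quantile normalization they were Rbm3 (0.0070), Grin2d (0.015) and Apoe (0.041). With normexp these were Endou (0.11), Abcd3 (0.00017), Cirbp (0.099), Rbm3 (0.029), Grin2d (0.044) and Apoe (0.12). With the deposited z-scores they were Cirbp (0.00) and Rbm3 (0.0061). With the slide as a block these were Endou (0.0038) and Creb1 (0.012). With the series as a block they were Arc (-0.21) and Grin2d (0.025). With the replicate block these were Rbm3 (0.031) and Grm3 (-0.051). With the within-series fit they were Gfra1 (0.00065), Gsk3b (0.10), Rbfox3 (0.28), Neurod2 (0.10), Fgfr3 (0.034), Arc (-0.056) and Egr1 (-0.032). With the within-series fit and 75th percentile scaling these were Gfra1 (0.0039), Gsk3b (0.15), Cirbp (0.016), Mcm6 (-0.037), Rbfox3 (0.29), Neurod2 (0.14), Fgfr3 (0.041), Arc (-0.088), Egr1 (-0.068), Npas4 (-0.16) and Apoe (0.12). With the grid centre of 1 Hz replicate 1 masked, also chosen after seeing the data, they were Gfra1 (0.00065), Gsk3b (0.10), Rbfox3 (0.28), Neurod2 (0.10), Fgfr3 (0.034) and Egr1 (-0.032).

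Leaving out single arrays or pairs gave changes of -0.38 to 0.32 for Endou, -0.052 to 0.66 for Nr4a2, -0.73 to 0.063 for Ier2, -0.050 to 0.50 for Rgs2, -1.16 to 0.070 for Gfra1, -0.12 to 0.52 for Grm6, -1.15 to 0.16 for Gsk3b, -0.44 to 0.047 for Dlg1, -0.054 to 1.32 for Tlr3, -0.064 to 0.24 for Dnaja1, -0.15 to 0.13 for Cirbp, -0.33 to 0.23 for Rbm3, -0.014 to 0.75 for Fdps, -0.15 to 0.69 for Mcm6, -1.24 to 0.35 for Rbfox3, -1.21 to 0.14 for Neurod2, -0.013 to 0.83 for Sst, -1.43 to 0.12 for Fgfr3, -1.72 to 0.10 for Myrf, -0.62 to 0.015 for P2ry12, -1.96 to 0.017 for Folr1, -0.55 to 0.75 for Fos, -0.26 to 0.86 for Arc, -0.38 to 0.86 for Egr1, -0.23 to 0.73 for Npas4, -0.020 to 0.68 for Bdnf, -0.14 to 0.30 for Grm3, -0.34 to 0.16 for Grin2d and -0.21 to 0.078 for Apoe. A pair left out here means the 1 Hz array of that series left out of the within-series fit. In all, 2569 values of single genes kept their direction and side of the threshold under an alternative, 110 turned sign, 8 no longer passed and 1 newly passed. Signal over background limits A_44_P1130837, A_44_P1160413, Cdh19, Endou, Ntn4 and Npas4, among others, which were dim on every array of at least 1 group. The causes were not tested.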
